A study of Rattus norvegicus with 12 samples.

Results

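The enzymes that attach ubiquitin to proteins and those that take it off again were followed in rat brain after a stroke model. They were chosen by gene symbol: every probe set that the array annotation gives to exactly 1 gene, where that gene is named as a ubiquitin-activating enzyme (E1, Uba), a ubiquitin-conjugating enzyme (E2, Ube2) or a deubiquitinase of the Usp, Uchl, Otub or Otud families. This gave 160 probe sets of 88 genes, out of 20832 such probe sets of 14218 genes on the array. The E1 class held 5 genes, the E2 class 29 and the deubiquitinase class 53. The remaining gene, Usp6nl, carries a Usp symbol but is known as a Rab GTPase-activating protein and was kept apart.

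Messenger RNA was read on 12 arrays, 1 for each rat. The animals were Sprague-Dawley males, 8 weeks old, and the left cerebral hemisphere was taken 24 h after reperfusion. Middle cerebral artery occlusion (MCAO), a surgical stroke model, was done in 7 of them, and 5 were sham-operated (Sham). The labels do not state the side or the length of the occlusion. A whole hemisphere mixes injured and uninjured tissue and all brain cell types. In such bulk tissue, fewer cells of a type and less RNA in each cell cannot be told apart.

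Ubiquitin is passed along a chain of enzymes. An E1 activates it with ATP, an E2 takes it over, and with a ligase (E3) it is joined to a target protein. Chains of ubiquitin can send a protein to the proteasome or change its traffic and signalling, and deubiquitinases trim or remove them. Related enzymes handle ubiquitin-like proteins such as SUMO, NEDD8 and ISG15 in the same way. In neurons the system serves synapse turnover and the removal of misfolded proteins.

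Values are log2 signals as deposited. Array medians lay between 7.23 and 7.27, and the number of arrays limits the precision. A probe set was tested if its signal exceeded 6.61 in at least 5 arrays, and each gene was represented by its tested probe set with the highest mean. Of the 12157 genes tested, 6319 varied, and 5838 were near-constant, with a pooled SD within the groups under 0.01. A near-constant gene allows no reading of a difference, also where its signal is high. In MCAO 6 the control probe sets were out of register with the other 11 arrays: 0 of 40 near-constant controls matched, and all 40 did in each other array. Markers of other cells moved between the same groups. Of 8 varying neuron markers 5 were lower (list mean 10.96 to 11.35 in MCAO, 11.35 to 11.48 in Sham), as were 6 of 6 striatal neuron markers (7.88 to 8.32 in MCAO, 8.82 to 8.99 in Sham). All 5 activated phagocyte markers were higher (8.81 to 9.85 in MCAO, 7.00 to 7.19 in Sham), and so were all 5 reactive astrocyte markers (9.50 to 10.46 in MCAO, 7.86 to 8.11 in Sham). All 5 varying markers of neutrophils, monocytes and lymphocytes were higher. The mean of the 6 tested markers was 7.17 to 8.20 in MCAO and 6.47 to 6.63 in Sham. It includes the lymphocyte marker Cd3e, which was near-constant at 6.94, so no marker particular to lymphocytes could be read. Of general astrocyte markers 4 of 5 were lower, of microglia markers 1 of 3 was higher and 2 lower, of oligodendrocyte markers 1 of 4 was lower, and of endothelial and pericyte markers 2 of 5 were higher and 1 lower. The part of these shifts in the results on the enzymes was not tested.

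More conjugating enzymes were called higher in MCAO than lower, and more deubiquitinases were called lower than higher. Among 20 varying E2 genes, 10 were higher, 2 were lower and 8 did not pass (limma, threshold of 0.05 on the p-value adjusted over all genes). The 10 include Ube2c, which was tested through its MCAO arrays alone and so had to differ. Among 33 varying deubiquitinase genes, 4 were higher, 15 were lower and 14 did not pass. Over all varying genes, 35.1% were called higher and 34.1% lower. The E2 class therefore had 50% of its genes higher and 10% lower, while the deubiquitinases had 12.1% higher and 45.5% lower. The median log2 difference, MCAO minus Sham, was 0.16 for the E2 genes and -0.14 for the deubiquitinases, against 0.03 for all varying genes. Without MCAO 6, 10 E2 genes were higher and 2 lower, and 4 deubiquitinases were higher and 15 lower. The classes were set side by side as a description, and no test was made between them. With every tested probe set counted in its own right, 18 E2 probe sets were higher and 5 lower of 32 that varied, and the median was 0.19. For the deubiquitinases 10 probe sets were higher and 16 lower of 42, with a median of -0.06. Of all varying probe sets 36.9% were called higher and 30.7% lower.

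**Figure D1:**
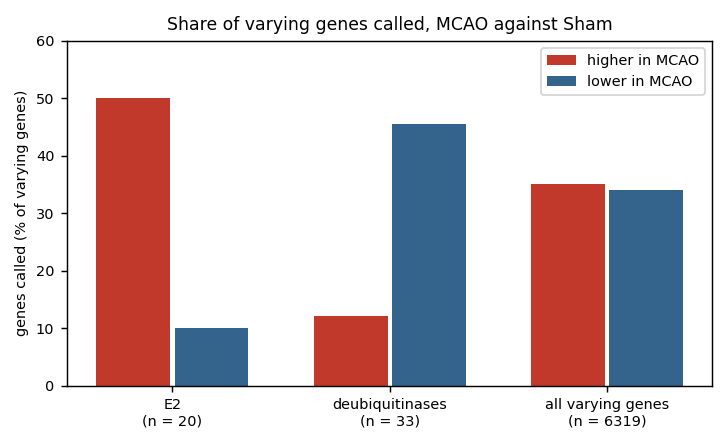
Share of varying genes called higher (red) or lower (blue) in MCAO than in Sham, in percent, for the E2 genes, the deubiquitinases and all varying genes. The E2 bars stand at 50% higher and 10% lower, the deubiquitinase bars at 12.1% higher and 45.5% lower, and the bars of all genes at 35.1% and 34.1%.

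**Figure D2:**
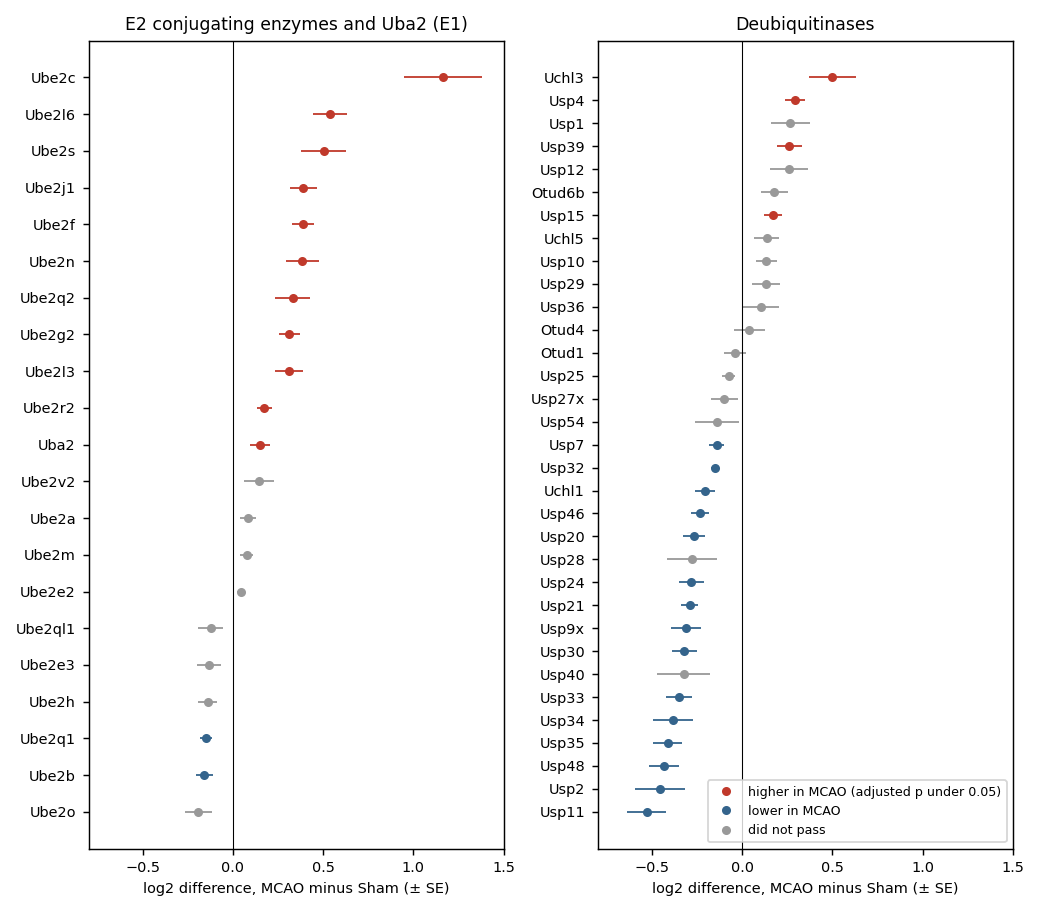
Log2 difference, MCAO minus Sham, of each varying gene (points, with the standard error as bars), E2 genes with the E1 gene Uba2 at left and deubiquitinases at right. Ube2c stands apart at 1.16, and the deubiquitinases reach down to -0.53 for Usp11.

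Sizes were small except for 1 gene. Of the 10 E2 genes called higher, 9 were at least 1.2-fold higher, and 0 of the 2 called lower were at least 1.2-fold lower. Of the 15 deubiquitinases called lower, 11 were at least 1.2-fold lower, and 2 of the 4 called higher were at least 1.2-fold higher. Over all called varying genes the median size of the log2 difference was 0.37, which is more than 1.2-fold. Reaching 1.2-fold is therefore no trait of these enzymes. The groups were fully apart, with every MCAO rat above every Sham rat, for 5 E2 genes and 1 deubiquitinase, where 17.8% of all varying genes were called higher in this way. They were fully apart the other way for 7 deubiquitinases and 0 E2 genes, where 16.2% of all varying genes were called lower in this way. Ube2c, which had to differ, is among the 9 E2 genes at least 1.2-fold higher and the 5 fully apart.

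Among the E1 enzymes 1 gene varied on its representative probe set. Uba2, which forms the SUMO-activating enzyme together with Sae1, lay between 10.04 and 10.39 in MCAO (median 10.23), against 10.07, 10.13, 10.16, 10.11 and 10.03 in Sham. The groups overlapped. Its log2 difference was 0.15 ± 0.06 (SE, limma adjusted p = 0.0488), and the call was kept under 12 of 28 alternatives, with adjusted p from 0.00428 to 0.16. Uba1, the main activator of ubiquitin, Uba3, the catalytic subunit for NEDD8, Uba6, a second activator of ubiquitin, and Uba7, which activates ISG15, were near-constant. In Uba1 the signal was 9.82 in each of the 12 arrays. A lower probe set of Uba6 did vary, at 7.29 to 7.47 in MCAO (median 7.31), against 7.58, 7.59, 7.60, 7.58 and 7.54 in Sham. Every MCAO rat was below every Sham rat on it, with a log2 difference of -0.23 ± 0.03 (limma adjusted p = 0.000996 over all probe sets). The other 3 tested probe sets of Uba6 were near-constant, so the array gives no single answer for this gene.

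The E2 enzymes of the anaphase-promoting complex, the ligase that drives exit from mitosis, had 2 of the 3 largest rises among E2 genes. Ube2c (Entrez Gene 296368), which starts ubiquitin chains on this ligase's targets, lay between 6.63 and 7.93 in MCAO (median 7.67), against 6.51, 6.28, 6.28, 6.10 and 6.53 in Sham. All MCAO rats were above all Sham rats. The signal averaged 7.50 ± 0.46 in MCAO (SD, n = 7) and 6.34 ± 0.18 in Sham (SD, n = 5), a 2.24-fold difference (limma adjusted p = 0.00282). All 5 Sham values were below the filter at 6.61, so Ube2c was tested through its MCAO arrays alone and had to differ. It was the one tested member probe set of this kind. Ube2s, which extends the chains that Ube2c starts, lay between 9.77 and 10.50 in MCAO (median 10.25), against 9.83, 9.48, 9.58, 9.74 and 10.00 in Sham. MCAO 2 held the 9.77 and fell inside the Sham range, while the other 6 MCAO rats were above it. The log2 difference of Ube2s was 0.50 ± 0.12 (limma adjusted p = 0.00919).

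Some of the enzymes act on ubiquitin-like proteins. Ube2l6 (Entrez Gene 295704), the main E2 for the interferon-induced protein ISG15, lay between 6.80 and 7.43 in MCAO (median 7.20), against 6.64, 6.55, 6.70, 6.68 and 6.65 in Sham. Every MCAO rat was above every Sham rat, and the log2 difference was 0.54 ± 0.09 (limma adjusted p = 0.00222). The Sham values of Ube2l6 lay near the filter at 6.61, with Sham 2 below it. Isg15 itself differed by 0.73 ± 0.06 (limma adjusted p = 0.000149). Usp18, the protease that removes ISG15 again, was near-constant at 7.19 in both groups. Uba7 was near-constant too, so neither gene can be read as unchanged. Ube2f, an E2 for NEDD8, which switches on cullin ligases, lay between 8.93 and 9.32 in MCAO (median 9.17), against 8.74, 8.78, 8.74, 8.79 and 8.83 in Sham. The groups did not overlap (0.39 ± 0.06, limma adjusted p = 0.00173). Ube2m, the other E2 for NEDD8, differed by 0.08 ± 0.04 and did not pass (limma adjusted p = 0.118).

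Ube2j1 is anchored in the membrane of the endoplasmic reticulum, where misfolded proteins are marked for degradation. It lay between 8.09 and 8.50 in MCAO (median 8.35), against 7.96, 7.78, 7.86, 8.05 and 7.95 in Sham. All MCAO rats were above all Sham rats (0.39 ± 0.07, limma adjusted p = 0.00302). Ube2g2, which works with ligases of the same membrane, was picked after its values were seen. It lay between 8.60 and 8.95 in MCAO (median 8.84), against 8.44, 8.51, 8.45, 8.45 and 8.54 in Sham, again with no overlap (0.31 ± 0.06, limma adjusted p = 0.00302). A second Ube2g2 probe set was higher by 0.33 ± 0.09. Ube2j2, the relative of Ube2j1, was near-constant and allows no reading.

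Ube2n, which builds chains linked through lysine 63 of ubiquitin and acts in inflammatory signalling and DNA repair, lay between 9.12 and 9.58 in MCAO (median 9.43), against 9.07, 8.87, 8.87, 8.97 and 9.18 in Sham. MCAO 2 and 1 other MCAO rat were within the Sham range (0.38 ± 0.09, limma adjusted p = 0.00763). Its second probe set was higher by 0.44 ± 0.11. Ube2v2, a partner of Ube2n that lacks the active cysteine, differed by 0.15 ± 0.08 and did not pass (limma adjusted p = 0.183). The remaining E2 genes called higher, named after their values were seen, were Ube2q2 (0.33), Ube2l3 (0.31) and Ube2r2 (0.17), an E2 of cullin ligases.

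The E2 genes called lower changed little. Ube2q1 differed by -0.15 ± 0.03 (limma adjusted p = 0.00605), a call lost with the replicate numbers as a block (limma adjusted p = 0.0583). Ube2b, which with its near twin Ube2a ubiquitinates the DNA clamp PCNA and histone H2B, differed by -0.16 ± 0.05 (limma adjusted p = 0.0199). The Ube2b call was lost without Sham 2 (limma adjusted p = 0.0518) or Sham 3 (limma adjusted p = 0.0514). It was also lost with the replicate numbers as a block (limma adjusted p = 0.0543), over a range of 0.00145 to 0.0543 under 28 alternatives. Ube2a did not pass on its brighter probe set (0.08 ± 0.04), and its other probe set was higher by 0.30 ± 0.06 with no overlap between the groups. Ube2e3 also differed between probe sets, with -0.13 ± 0.07, which did not pass, and -0.43 ± 0.09, which did.

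For 3 E2 genes the representative probe set was near-constant while another one varied. In Ube2d2, a widely used E2 with low selectivity, 2 further probe sets were higher, by 0.20 ± 0.06 and 0.10 ± 0.03. Ube2g1 was higher by 0.25 ± 0.07 on its second probe set. In Ube2k, an E2 that binds huntingtin, 2 further probe sets were lower, by 0.25 and 0.07 on the log2 scale (differences of -0.25 ± 0.07 and -0.07 ± 0.02). Ube2d1 was near-constant on both of its probe sets. Near-constant genes were called too: 17.3% of all of them passed, with differences of at most 0.04 in size, and 3 near-constant deubiquitinases (Otub2, Otud7b and Usp49) were among them. Such calls are not counted here.

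**Figure D3:**
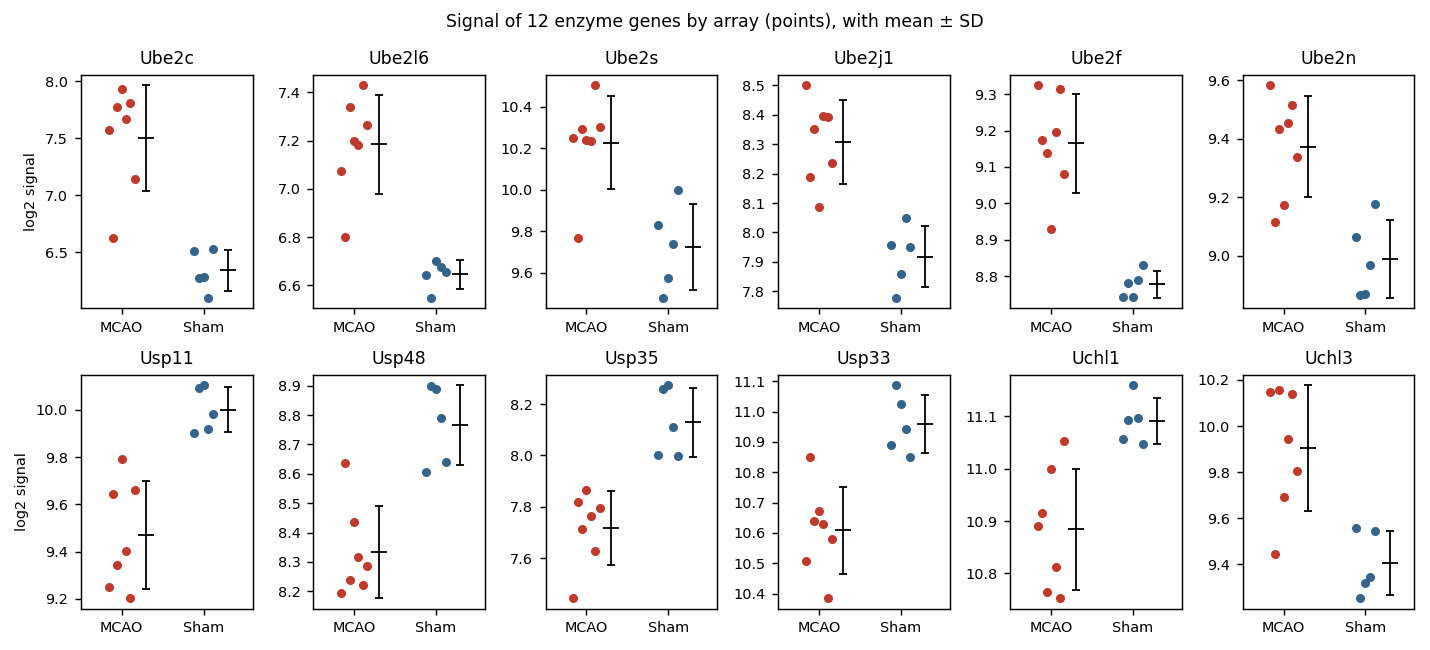
Log2 signal in each array (points) with the mean and SD at the right of each group, MCAO left and Sham right, for 6 E2 genes (top row) and 6 deubiquitinases (bottom row). Ube2c, Ube2l6, Ube2j1 and Ube2f have every MCAO point above every Sham point, and Usp11, Usp35 and Usp33 have every MCAO point below.

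Promoter letters are shown for the E2 genes that rose and carry 1 motif in common. Of the 88 genes, 72 had a promoter in the RefSeq table (build GRCr8), and the 250 bases before the start were searched on both strands. The motif was 1 of 8 motifs searched and was picked for display after the counts were seen: the core of the antioxidant-response element, TGACNNNGC, which can overlap the first 6 letters of a cyclic AMP response element, TGACGTCA. It was present in 5 of the 8 E2 genes called higher that had a promoter row. It was present in 3 of 12 deubiquitinases called lower, in 15 of the 72 member genes (20.8%) and in 10.2% of all 27457 promoters. The member promoters are rich in G and C: the GC box, GGGCGG, was in 68.1% of them and in 32.4% of all promoters. A match describes the letters, not a site that is used. Capitals mark the matches in either orientation. The stretches are Ube2j1 (chr5:52218557-52218806, plus strand), Ube2g2 (chr20:11005061-11005310, minus strand), Ube2n (chr7:32040959-32041208, plus strand), Ube2q2 (chr8:64414824-64415073, plus strand) and Ube2s (chr1:78057409-78057658, plus strand).
Ube2j1: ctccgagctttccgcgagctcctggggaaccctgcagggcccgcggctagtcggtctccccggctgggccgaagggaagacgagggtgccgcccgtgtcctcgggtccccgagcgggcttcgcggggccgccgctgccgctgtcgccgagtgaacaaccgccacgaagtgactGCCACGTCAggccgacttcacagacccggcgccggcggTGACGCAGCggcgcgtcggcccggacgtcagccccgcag
Ube2g2: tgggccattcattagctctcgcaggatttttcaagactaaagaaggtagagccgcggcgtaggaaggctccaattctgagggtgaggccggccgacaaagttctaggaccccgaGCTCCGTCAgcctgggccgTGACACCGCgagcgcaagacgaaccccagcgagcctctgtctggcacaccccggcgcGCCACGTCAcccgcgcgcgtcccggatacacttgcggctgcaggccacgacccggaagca
Ube2n: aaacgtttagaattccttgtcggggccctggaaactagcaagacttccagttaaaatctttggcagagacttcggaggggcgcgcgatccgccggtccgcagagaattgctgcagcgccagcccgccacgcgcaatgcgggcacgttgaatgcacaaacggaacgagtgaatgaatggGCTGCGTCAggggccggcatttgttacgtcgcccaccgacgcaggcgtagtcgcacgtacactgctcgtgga
Ube2q2: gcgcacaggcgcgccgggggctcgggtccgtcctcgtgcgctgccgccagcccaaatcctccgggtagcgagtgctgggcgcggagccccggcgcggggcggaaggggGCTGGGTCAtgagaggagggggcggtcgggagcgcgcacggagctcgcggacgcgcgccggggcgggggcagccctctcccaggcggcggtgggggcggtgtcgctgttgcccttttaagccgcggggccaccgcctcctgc
Ube2s: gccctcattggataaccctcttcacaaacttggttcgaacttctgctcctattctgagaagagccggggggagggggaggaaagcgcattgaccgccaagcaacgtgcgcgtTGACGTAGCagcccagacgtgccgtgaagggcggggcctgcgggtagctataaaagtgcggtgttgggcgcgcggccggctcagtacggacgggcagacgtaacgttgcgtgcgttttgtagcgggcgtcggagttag
The motif occurs 3 times in the Ube2g2 stretch and 2 times in that of Ube2j1. Other motifs were searched in the same way. The interferon-response element, read as a pair of GAAA blocks with any 2 bases between, had 0 matches in the 72 members and was in 3.29% of all promoters. The CCAAT box, CCAAT, was in 4 of the 8 E2 genes called higher and in 34.3% of all promoters. The cell cycle element TTTGAA was in 1 of the 8 and in 16% of all promoters. The E-box, CACGTG, was in 0 of the 8 and in 5.79% of all promoters, and TGACGTCA was in 0 of the 8 and in 1.7%. The heat-shock element, read as GAA, TTC and GAA blocks with any 2 bases between, was in 0 of the 72 members and in 0.597% of all promoters.

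Most deubiquitinases that changed were lower, and Usp11 had the largest difference. Usp11 (Entrez Gene 408217), known for a role in DNA repair, lay between 9.20 and 9.79 in MCAO (median 9.40), against 9.90, 10.09, 10.10, 9.92 and 9.98 in Sham. All MCAO rats were below all Sham rats. It averaged 9.47 ± 0.23 in MCAO (SD, n = 7) and 10.00 ± 0.09 in Sham (SD, n = 5), a ratio of 0.693 (limma adjusted p = 0.00386). A second, dimmer Usp11 probe set differed by -0.05 ± 0.04 and did not pass. Usp35 lay between 7.44 and 7.86 in MCAO (median 7.76), against 8.00, 8.26, 8.27, 8.11 and 8.00 in Sham, with no overlap (-0.41 ± 0.08, limma adjusted p = 0.00338). Usp48 lay between 8.20 and 8.64 in MCAO (median 8.29), against 8.61, 8.90, 8.89, 8.79 and 8.64 in Sham. MCAO 2 was the one MCAO rat within the Sham range (-0.43 ± 0.09, limma adjusted p = 0.00353).

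Usp33, which removes ubiquitin from the guidance receptor Robo1 and from adrenergic receptors, lay between 10.38 and 10.85 in MCAO (median 10.63), against 10.89, 11.09, 11.03, 10.94 and 10.85 in Sham. The groups touched near 10.85 but did not overlap (-0.35 ± 0.07, limma adjusted p = 0.0044). Its close relative Usp20 differed by -0.27 ± 0.06. Usp34, a very large enzyme of Wnt signalling, differed by -0.38 ± 0.11 (limma adjusted p = 0.0188), a call lost without Sham 2 (adjusted p = 0.0523, over a range of 0.000424 to 0.0523 under 28 alternatives). Usp2, whose mRNA follows the circadian clock, lay between 7.62 and 8.56 in MCAO (median 7.92), against 8.36, 8.43, 8.46, 8.54 and 8.54 in Sham. MCAO 4 had the highest of these values, above every Sham rat. The Usp2 difference was -0.45 ± 0.14 (limma adjusted p = 0.0226), and -0.48 ± 0.15 on its second probe set. The Usp2 call was lost without Sham 4 (limma adjusted p = 0.052) and with the replicate numbers as a block (limma adjusted p = 0.0698). It was also lost by an exact rank-sum test (adjusted p = 0.085), over a range of 0.000432 to 0.085 under 28 alternatives.

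Usp30, which sits on the outer mitochondrial membrane and opposes the removal of damaged mitochondria, lay between 8.41 and 8.75 in MCAO (median 8.66), against 8.78, 9.06, 9.11, 8.94 and 8.89 in Sham. The groups did not overlap (-0.32 ± 0.07, limma adjusted p = 0.00498). Other genes called lower, named after their values were seen, were Usp21 (-0.29), Usp24 (-0.28), Usp46 (-0.23), known for control of glutamate receptor turnover, and Usp32 (-0.15). Of these, Usp21, Usp46 and Usp32 had no overlap between the groups. The second varying probe set of Usp32 had the opposite sign, 0.29 ± 0.13, and did not pass (limma adjusted p = 0.0986). Usp12, the relative of Usp46, differed by 0.26 ± 0.10 and did not pass (limma adjusted p = 0.064).

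Uchl1 and Uchl3 were called in opposite directions. Uchl1 (Entrez Gene 29545), an abundant protein of neurons, lay between 10.75 and 11.05 in MCAO (median 10.89), against 11.06, 11.09, 11.16, 11.10 and 11.05 in Sham. Its log2 difference was -0.21 ± 0.05 (limma adjusted p = 0.0114). MCAO 7 was the one MCAO rat within the Sham range. Uchl3, which also acts on NEDD8, lay between 9.45 and 10.16 in MCAO (median 9.94), against 9.56, 9.25, 9.32, 9.35 and 9.54 in Sham. MCAO 2 held the 9.45 and fell within the Sham range, and the other 6 MCAO rats were above it (0.50 ± 0.13, limma adjusted p = 0.012). Uchl5, a deubiquitinase of the proteasome, differed by 0.14 ± 0.07 and did not pass (limma adjusted p = 0.141). Usp14, the other one that binds the proteasome reversibly, was near-constant at 11.32 and allows no reading.

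Among the Usp genes 3 were higher. Usp4 lay between 8.96 and 9.22 in MCAO (median 9.16), against 8.90, 8.69, 8.82, 8.84 and 8.79 in Sham, with no overlap (0.29 ± 0.05, limma adjusted p = 0.00285). Its second probe set was higher by 0.25 ± 0.08. Usp15, its close relative, differed by 0.17 ± 0.05 (limma adjusted p = 0.0183), a call lost without Sham 2 (adjusted p = 0.0503, over a range of 0.000385 to 0.0503 under 28 alternatives). Usp39, a splicing factor known to lack protease activity, differed by 0.26 ± 0.07 (limma adjusted p = 0.0126). Usp1, which acts on PCNA, did not pass on its brighter probe set (0.27 ± 0.11) and was higher by 0.62 ± 0.18 on the other. The Otud genes that varied, Otud1, Otud4 and Otud6b, did not pass.

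Probe sets of 2 deubiquitinases were called in opposite directions. Usp7, which stabilises the p53 regulator Mdm2, was lower on 1 probe set: 8.83 to 9.10 in MCAO (median 8.91), against 9.04, 9.12, 9.10, 9.01 and 9.06 in Sham (-0.14 ± 0.04, limma adjusted p = 0.0198 over all probe sets). On its other 3 probe sets it was higher, by 0.34 ± 0.10, 0.41 ± 0.10 and 0.46 ± 0.10. The first of these lay between 8.71 and 9.28 in MCAO (median 9.11), against 8.96, 8.65, 8.68, 8.58 and 8.73 in Sham. Usp7 was counted as lower above because the probe set that fell had the highest mean. That call was lost without Sham 2 (adjusted p = 0.0514, over a range of 0.000912 to 0.0514 under 28 alternatives). With the mean of its probe sets, the Usp7 difference was 0.27. Usp9x, a large deubiquitinase of neurons and their progenitors, was lower by 0.31 on its brightest probe set (-0.31 ± 0.08), higher by 0.24 ± 0.08 on its dimmest, and near-constant on 2 others. With the mean of its probe sets the Usp9x call was lost (limma adjusted p = 0.481). Neither gene has a direction that holds for all its probe sets. Of 16 member genes with several varying probe sets, 13 had the same sign on all of them. In 6 genes every varying probe set was called higher, and in 2, Ube2k and Usp2, every one was called lower. The 3 genes whose signs differed, Usp7, Usp9x and Usp32, were all deubiquitinases counted as lower.

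**Figure D4:**
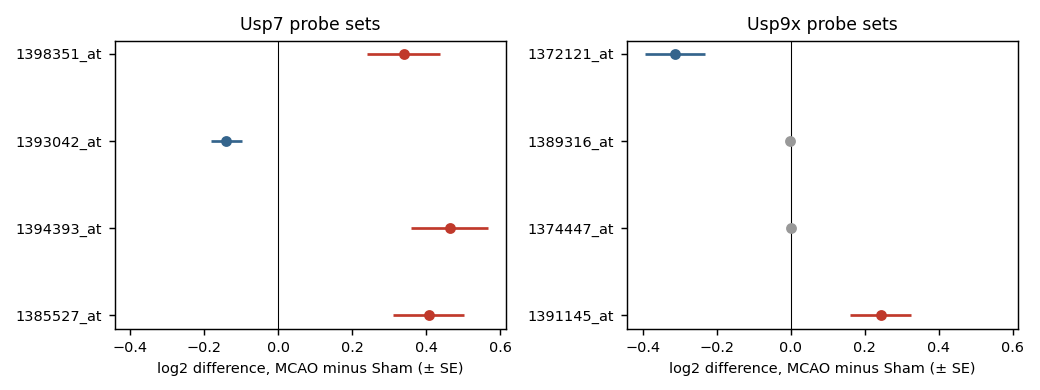
Log2 difference, MCAO minus Sham, of each tested probe set of Usp7 and Usp9x (points, with the standard error as bars), ordered by mean MCAO signal from bottom to top. Red points were called higher, blue points lower, and grey points were near-constant. For Usp7, 3 probe sets stand to the right of 0 and 1 to the left.

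The MCAO rats did not shift equally. The mean log2 shift of the 10 E2 genes called higher was 0.53 in MCAO 1, 0.17 in MCAO 2, 0.54 in MCAO 3, 0.38 in MCAO 4, 0.52 in MCAO 5, 0.62 in MCAO 6 and 0.40 in MCAO 7, against -0.07 to 0.11 in Sham. The 15 deubiquitinases called lower had mean shifts of -0.45 in MCAO 1, -0.17 in MCAO 2, -0.35 in MCAO 3, -0.18 in MCAO 4, -0.34 in MCAO 5, -0.45 in MCAO 6 and -0.28 in MCAO 7, against -0.08 to 0.07 in Sham. Both shifts were smallest in MCAO 2 and MCAO 4. The E2 means include Ube2c, which had to differ. All these genes were chosen by their calls, so the side of 0 on which their MCAO means lie is fixed by that choice. Over all 20 varying E2 genes the mean shift was 0.06 in MCAO 2, within the Sham range of -0.04 to 0.07. It was 0.18 to 0.27 in the other MCAO rats. Over all 33 varying deubiquitinases it was -0.03 in MCAO 2, within the Sham range of -0.04 to 0.04. The other MCAO rats had -0.14 to -0.08. MCAO 2 was the rat nearest to Sham for 18 of the 32 called genes and MCAO 4 for 10. The neuron markers had a mean shift of -0.07 in MCAO 2 and -0.17 in MCAO 4, against -0.19 to -0.46 in the other MCAO rats. The reactive astrocyte markers had 1.54 in MCAO 2 and 1.51 in MCAO 4, against 1.75 to 2.47 in the others. The other lists did not all have this order. The varying markers of the neutrophil, monocyte and lymphocyte list had 0.75 in MCAO 2, 1.06 in MCAO 4 and 0.92 in MCAO 7. The microglia markers were farthest below Sham in MCAO 2, at -0.69, with 0.02 in MCAO 4. Without MCAO 2, 8 deubiquitinases were called higher and 18 lower, and 14 E2 genes were called higher and 4 lower. Calls over all varying genes were also more frequent without this rat, at 40.4% higher and 36.8% lower.

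**Figure D5:**
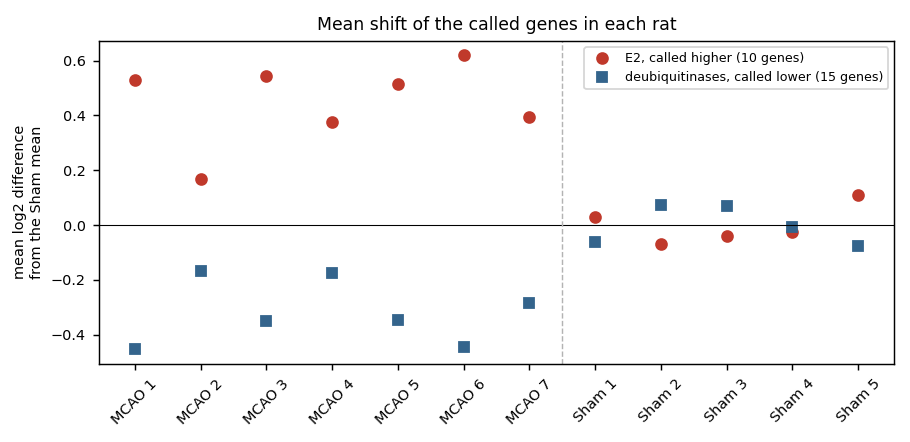
Mean log2 difference from the Sham mean in each rat, for the 10 E2 genes called higher (red circles) and the 15 deubiquitinases called lower (blue squares). MCAO 2 lies closest to 0 among the MCAO rats, at 0.17 and -0.17. The genes were chosen by their calls, so the side of 0 on which the MCAO rats lie is fixed by that choice.

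Not every member could be read. Of the 160 probe sets 144 passed the filter, and the 16 that did not were near-constant. Of the 88 genes 82 were tested, and 54 of these varied, with 15 higher, 17 lower and 22 not passing. These are 27.8% higher and 31.5% lower, against 35.1% and 34.1% of all varying genes. The members as a whole were thus not called more often than all varying genes. The 28 near-constant genes, 17 of them deubiquitinases, 6 E2 genes, 4 E1 genes and Usp6nl, allow no reading of a difference. The genes not tested were Ube2d2b, Ube2t and Ube2u among the E2 genes, and Otud3, Usp43 and Usp44 among the deubiquitinases.

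Genes next to these enzymes in the pathway were read from lists, beside the 35.1% higher and 34.1% lower of all varying genes. Of the ubiquitin-like proteins and their other enzymes, 6 of 9 varying genes were higher and 1 was lower. Besides Isg15, they included Sumo3 (0.23 ± 0.05) and Atg3 (0.28 ± 0.05), the E2-like enzyme of autophagy, both higher, and the SUMO protease gene Senp7 (-0.24 ± 0.03), which was lower. Of deubiquitinases outside the listed families, 4 of 11 varying genes were higher and 3 lower, shares near those of all varying genes. Tnfaip3, an inhibitor of NF-kB signalling, differed by 0.48 ± 0.17 (limma adjusted p = 0.0382), and Psmd14, the deubiquitinase of the proteasome lid, by 0.28 ± 0.06. Cyld, another inhibitor of NF-kB signalling, was lower by 0.39 (-0.39 ± 0.08, limma adjusted p = 0.00508), as was Mindy3 (-0.40 ± 0.06).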

How the data were processed

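The deposited table holds array signals on a log2 scale, as judged from its range of values; for the log base, the software, the background correction and the normalization, the authors' choice is not given in the sources used here. Array medians spanned 0.05, so values were used as deposited. Groups came from the sample titles. Probe sets were named through the platform annotation, and those with several genes were not used. The filter was a value above 6.61, the 25th percentile of the table, in at least 5 arrays, with the brightest probe set for each gene. The test was limma (version 3.58.1, R 4.3.3), with lmFit and a trended eBayes, and p-values were two-sided and adjusted by Benjamini-Hochberg over the 12157 genes, or over all 17250 probe sets where a probe set is described, with a threshold of 0.05. Errors given as ± beside a log2 difference are standard errors from that fit. Near-constant probe sets stayed in the fit and were counted apart. The procedure was tested on simulated data. It recovered 38% of log2 changes of 0.25, 74% of those of 0.5 and 96% of those of 1, with 3 false calls. A gene that did not pass can therefore still differ by a small amount. The p-values set the difference between the groups against the spread within them. Nothing states how the rats were allocated, so they do not tie a difference to the surgery. RNA integrity was compared by an exact permutation test. Alternatives changed the scaling, the filter, the probe set used for a gene, the variance model, the test and the arrays. The rule named every E1 gene, the 6 largest called rises and falls of each class, a fixed set of enzymes, and genes with probe sets called in opposite directions. Every other member, and the pathway genes, were named after their values were seen. Members and lists were chosen with earlier results of these data known.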

Additional observations from a re-analysis of the deposited data

Results flagged for a closer look

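In 2 of the 50 groups examined, that is 25 varying named genes in MCAO and in Sham, 1 rat stood far from the rest of its group, measured by its gap to the nearest other rat as a share of the group's range. Chance alone does this in about 1 in 20 groups. Both were MCAO 2. Its Ube2s signal of 9.77 was the lowest of the MCAO rats, whose other values lay between 10.23 and 10.50. Its Usp7 signal of 9.10 was the highest of the MCAO rats, whose other values lay between 8.83 and 8.94 on the probe set that represents the gene.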

How the results depend on the processing

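Each count was recomputed under 17 other settings and with each array left out. The count of E2 genes called higher stayed within 1.5 times its value under all of these (7 to 14), and so did that of deubiquitinases called lower (12 to 18). The count of member genes called lower also stayed within 1.5 times (12 to 23), and the remaining counts are given where they moved further. With the array weights 24 member genes were higher in all, 5 E2 genes were lower and 9 deubiquitinases were higher, while 44.2% of all varying genes were called higher and 40.8% lower. With near-constant probe sets left out, 1 E1 gene and 5 E2 genes were lower and 7 deubiquitinases were higher. Counting any probe set of a gene gave 0 E1 genes higher and 1 lower, 4 E2 genes lower and 7 deubiquitinases higher. With the mean of the probe sets, 1 E1 gene and 4 E2 genes were lower and the deubiquitinase median was -0.0746, and with the probe set of largest variance the figures were 1, 4 and -0.0992. Equal array medians gave 4 E2 genes lower. The 1 E1 gene called higher became 0 with equal medians, equal 75th percentiles, no filter, the exact rank-sum test and the replicate block. Usp7 turned to 0.27 with the mean of the probe sets and to 0.46 with the probe set of largest variance. Ube2k, near-constant in the values reported, became -0.25 with near-constant probe sets left out and with the largest variance, and -0.0784 with the mean; here another probe set stands for the gene. The cause of the other moves was not tested.

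Leaving out single arrays gave 13 to 22 member genes higher and 14 to 22 lower, 0 to 1 E1 genes higher and 0 lower, 10 to 14 E2 genes higher and 1 to 4 lower, and 3 to 8 deubiquitinases higher and 13 to 18 lower. The medians ranged from 0.14 to 0.20 for E2 genes and from -0.17 to -0.13 for deubiquitinases. Over all varying genes 1857 to 2553 were higher and 1763 to 2326 lower. Most of the upper ends came without MCAO 2. E2 genes called lower numbered 4 without MCAO 2 and 1 without Sham 2 or Sham 3.

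With the replicate block 1428 genes were higher and 1344 lower over all varying genes, against 2218 and 2157 without it, and 7 E2 genes were higher, 0 lower, and 4 deubiquitinases higher and 12 lower. The titles give both groups the same numbers but state no pairing, so the numbers were not taken as pairs. Same-numbered rats had correlations of deviations from -0.33 to 0.54 over 5 pairs. The best match among the Sham rats was the same-numbered one for MCAO 1, MCAO 2 and MCAO 5, and another one for MCAO 3 and MCAO 4. Shared handling of same-numbered rats was not tested.

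The 3' minus 5' signal of the beta-actin control, a sign of RNA integrity, averaged 1.37 ± 0.07 in MCAO (SD, n = 6, without MCAO 6) and 1.43 ± 0.03 in Sham (SD, n = 5), a difference of -0.06 (exact permutation test, two-sided, p = 0.13). Without MCAO 4 it was -0.0814 (exact p = 0.0159), and leaving out single arrays gave -0.0814 to -0.0403. The Gapdh control differed by 0.00132 (exact p = 0.121) but was near-constant, with an SD of 0.0012 in MCAO and 0.0013 in Sham. It therefore allows no reading of a difference in RNA integrity. The part of RNA integrity in the results was not tested.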

Other observations

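The E3 ligases and their adaptors choose the target proteins. Of 50 varying genes in the list 15 were higher, 19 were lower and 16 did not pass, with a median log2 difference of -0.06. These shares are close to the 35.1% higher and 34.1% lower of all varying genes, so the counts are no result about the ligases as a group. The largest rises were those of Mdm2, the ligase of p53 (0.57 ± 0.10), Birc2, an inhibitor of apoptosis (0.53 ± 0.09), Trim25, which acts in antiviral signalling (0.52 ± 0.10), and Vhl, which marks hypoxia-inducible factors for degradation (0.51 ± 0.09). In these 4 genes every MCAO rat was above every Sham rat. The largest falls were those of Ubr2, a ligase of the N-degron pathway (-0.47 ± 0.13), Rnf128 (-0.46 ± 0.07), Fbxw7, which targets cyclin E and Myc (-0.43 ± 0.11), and Traf3, a regulator of non-canonical NF-kB signalling (-0.43 ± 0.09). Of these, Rnf128, Fbxw7 and Traf3 had every MCAO rat below every Sham rat. These ligases were picked by the size of their change after the values were seen.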
